A study of Mus musculus with 4 samples.

Results

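Capillaries and small vessels run along every fiber of the soleus, a slow hind limb muscle, and their RNA is part of any whole-muscle library. The genes described here are 39 genes of that vascular compartment, chosen by name from genes known to be used by these cells. They comprise 25 endothelial genes, 8 mural genes (pericytes and vascular smooth muscle) and 6 genes for secreted angiogenic factors. All 39 were found among the 23420 genes of the deposited table, and all 39 were among the 13287 genes with a mean normalized count of at least 10 that entered the tests. A normalized count is a gene's read count divided by a size factor for its library.

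The 4 libraries came from muHuR-KO mice 1-9 and 3-9 and from controls 3-8 and 3-12, all aged 10 weeks and on a C57BL/6 background. The labels give the genotype MyoDCre+;LoxP-/- for the muHuR-KO mice and MyoDCre-;LoxP-/- for the controls, so that the Cre alone separates the groups, and LoxP-/- is written for all 4 mice where the study describes floxed alleles of Elavl1. Elavl1 encodes HuR, an RNA-binding protein that binds AU-rich stretches of mRNA, and the Cre is driven by the MyoD promoter, which is active in muscle progenitors. Endothelial and mural cells are not of that lineage. The purpose of the sequencing was to find mRNAs that differ in muscle without HuR. In whole muscle, fewer vascular cells and less RNA per vascular cell cannot be told apart.

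Endothelial cells line the vessels and sense VEGF-A, which muscle fibers secrete, through the receptor KDR, while FLT1 binds the same ligand and holds it back. Angiopoietin 1 from mural cells keeps the endothelial receptor TIE2 (Tek) active, and angiopoietin 2 competes with it. Notch signaling between neighboring endothelial cells, started by DLL4, sets which of them sprout.

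HuR is known for binding to AU-rich elements in 3′ untranslated regions, and Vegfa mRNA is among its targets described in cultured cells. The heptamer TATTTAT, searched on the sense strand only and with overlaps allowed, was present in the 3′ untranslated region of 11 of the 39 genes (28.2%), and in 30.6% of 12776 tested genes with such a region. The share among the vascular genes was thus near that of all genes. Vegfa carried 3 copies, Angpt1 carried 2 and Rgs5, Kdr and Flt1 carried 1 each. These genes are shown because Vegfa and its receptors are the core of the pathway and because Angpt1 and Rgs5 gave the largest differences described below. Nrp1, the remaining gene with a called difference, had no copy. The windows are 30 bases of mRNA sense from GENCODE M21 on GRCm38, 5′ to 3′, with the heptamer in capitals. A match describes the letters and is not a measured binding site.
Vegfa, chr17:46017594-46017623, minus strand: ttaatttcaacTATTTATgagatgtatctc
Vegfa, chr17:46017165-46017194, minus strand: ttgttatcattTATTTATtggtgctactgt
Vegfa, chr17:46017062-46017091, minus strand: tccgtagtacaTATTTATttttaaacagca
Angpt1, chr15:42425214-42425243, minus strand: catctttcttaTATTTATatgtgttcataa
Angpt1, chr15:42424874-42424903, minus strand: ttgttttcagtTATTTATaataaagcagta
Rgs5, chr1:169694193-169694222, plus strand: atataccaccaTATTTATgtatacattgaa
Kdr, chr5:75933163-75933192, minus strand: tatggcacatcTATTTATagtctgttatgt
Flt1, chr5:147563080-147563109, minus strand: gtatcagcccaTATTTATtaagcactttat

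Between 13301715 and 33348893 reads per library were assigned to genes, the fewest in control 3-12. Control 3-8 stood apart from the other 3 libraries: 1649 genes (12.4%) were lower in it and 47 (0.354%) were higher by limma at an adjusted p under 0.05, in fits whose residual spread comes from the other 3 libraries alone, whereas 0 genes (0%) were called in either direction for each of the other 3 libraries, with 49 to 310 genes at an unadjusted p under 0.05 and with 0 called by edgeR and 0 to 2 by DESeq2. Comparisons are given against both controls, against control 3-8 alone and against control 3-12 alone. With a single control, the difference between the 2 muHuR-KO mice, moderated over all genes by limma, is the only residual spread, and the lone control is assumed to vary as they do. Elavl1 itself, counted over the whole gene, had 1210 and 1205 normalized counts in muHuR-KO mice 1-9 and 3-9, against 1350 in control 3-8 and 1190 in control 3-12. The groups overlapped for it, and reads over the deleted exon alone were not measured here.

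The labelled tissue showed both vascular cell types in every library. Pecam1 (ENSMUSG00000020717.19, chromosome 11 from 106654217 to 106750628, minus strand), the adhesion protein CD31 of endothelial junctions, had 4133 and 3478 normalized counts in muHuR-KO mice 1-9 and 3-9, against 3856 in control 3-8 and 3865 in control 3-12. Acta2 (ENSMUSG00000035783.9, chromosome 19 from 34241090 to 34255590, minus strand), the actin of smooth muscle, had 2322 and 1751 in the muHuR-KO mice, against 2729 and 1863 in controls 3-8 and 3-12. For each gene the muHuR-KO values lay on both sides of at least 1 control. The Pecam1 means were 3806 ± 463 in muHuR-KO and 3860 ± 6.01 in controls (SD, n = 2 each).

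Levels differed more between genes than between libraries. Per kilobase of exon, Aqp1, the water channel of continuous capillaries, had the highest mean of the 39 genes, 2561 normalized counts (range over the libraries 2334 to 2976). The ligand genes Vegfb and Vegfa followed at 2330 (1958 to 2922) and 1973 (1531 to 2287), and the range of Vegfb overlapped those of both other genes, so its place among the 3 is not separated by the spread. Aqp1 lay above Vegfa in each of the 4 libraries. Rgs5, a regulator of G protein signaling in pericytes, and Acta2 came next at 1063 and 987. Of the other endothelial genes, Pecam1 had 615 and Eng, an accessory receptor for TGF-β family ligands, had 613. At the low end stood Cnn1 (calponin of contractile smooth muscle) at 12.6, Vegfc (the lymphatic growth factor) at 29.5 and Angpt2 at 31.7.

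**Figure D1:**
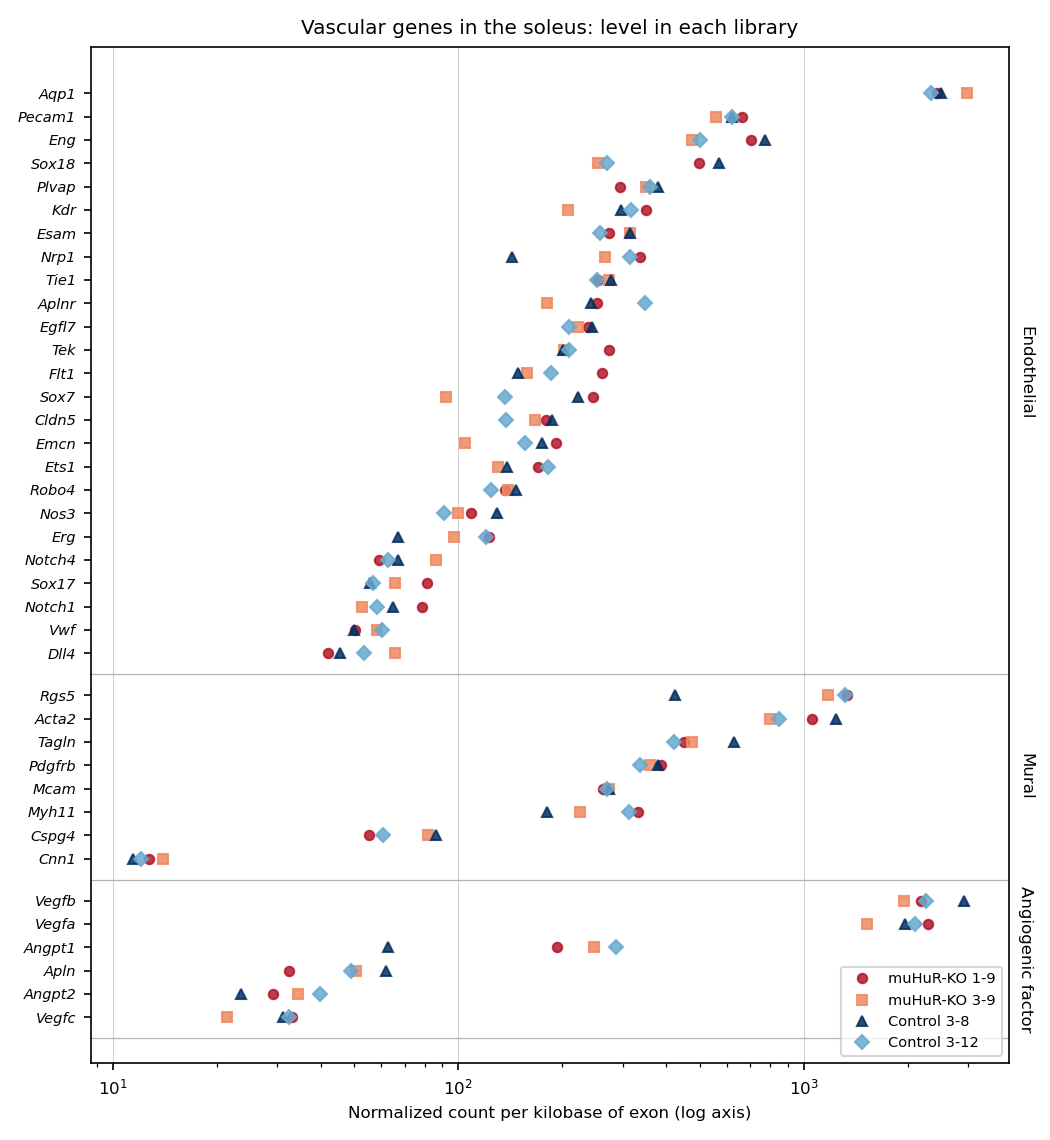
Normalized count per kilobase of exon (log axis) of the 39 genes in muHuR-KO 1-9 and 3-9 and in control 3-8 and 3-12, 1 symbol per library, ordered by mean within the endothelial, mural and angiogenic factor genes. Aqp1, Vegfb and Vegfa lie highest, Cnn1 lowest, and control 3-8 lies far left of the other libraries for Nrp1, Rgs5 and Angpt1.

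Against both controls, none of the 39 genes was called higher or lower by limma on log2(normalized count + 1), with Benjamini-Hochberg adjustment over the 13287 tested genes. Over all genes 0 were called as well (0%), with 102 at an unadjusted p under 0.05, and edgeR and DESeq2 on the recovered reads also called 0. The smallest unadjusted limma p of the 39 genes was 0.167, for Rgs5, and 0 of the 39 were under 0.05. Of the 39 fold changes, 30 were within 0.25 of 0 on the log2 scale and 37 within 0.5. The 2 muHuR-KO mice differed from each other by more than the group means did for 31 of the 39 genes, and the 2 controls did so for 27. The median absolute log2 difference was 0.34 between the muHuR-KO mice and 0.29 between the controls, beside 0.15 between the groups. Over all tested genes these medians were 0.23, 0.43 and 0.20. A difference of 2 single libraries varies more than a difference of 2 means. Larger values within the groups are therefore expected for most genes even with no group difference. The counts of 31 and 27 were not made over all tested genes. The first number of the mouse label is 3 for muHuR-KO 3-9 and both controls and 1 for muHuR-KO 1-9, and the labels do not say what it stands for. P-values measure the spread between these 4 mice.

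Both muHuR-KO libraries lay above both controls for 2 of the 39 genes (9.57% of all tested genes did) and below them for 2 (13.0% of all tested genes). The shares of the 39, 5.13% each, were not above the background. Sox17, a transcription factor of arterial endothelium, had 387 and 313 normalized counts in muHuR-KO mice 1-9 and 3-9, against 265 and 270 in controls 3-8 and 3-12. The log2 fold change of Sox17 was 0.38 ± 0.28 (SE). Cnn1 had 34.8 and 38.3 in the muHuR-KO mice, against 31.2 and 33.1 in the controls, from 18 to 54 reads per library. At that depth its log2 fold change of 0.18 ± 0.40 (SE) was not distinguishable from 0.

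Vegfb, a ligand of FLT1 that is linked to fatty acid uptake by endothelium, had 3505 and 3143 normalized counts in muHuR-KO mice 1-9 and 3-9, against 4689 and 3620 in controls 3-8 and 3-12. The log2 fold change was -0.31 ± 0.27 (SE), and control 3-12 lay much closer to the muHuR-KO mice than to control 3-8. Plvap, which forms the diaphragms of fenestrae and caveolae, had 585 and 696 in the muHuR-KO mice, against 751 and 714 in the controls, a log2 fold change of -0.20 ± 0.26 (SE). None of these 4 genes passed the test, each with a limma adjusted p of 0.9999. Single libraries moved these values: Sox17 was at 0.22 without muHuR-KO 1-9 and 0.53 without muHuR-KO 3-9, Cnn1 at 0.24 and 0.11, and Plvap at -0.07 and -0.32 without the same mice, while Vegfb was at -0.13 without control 3-8 and -0.50 without control 3-12.

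**Figure D2:**
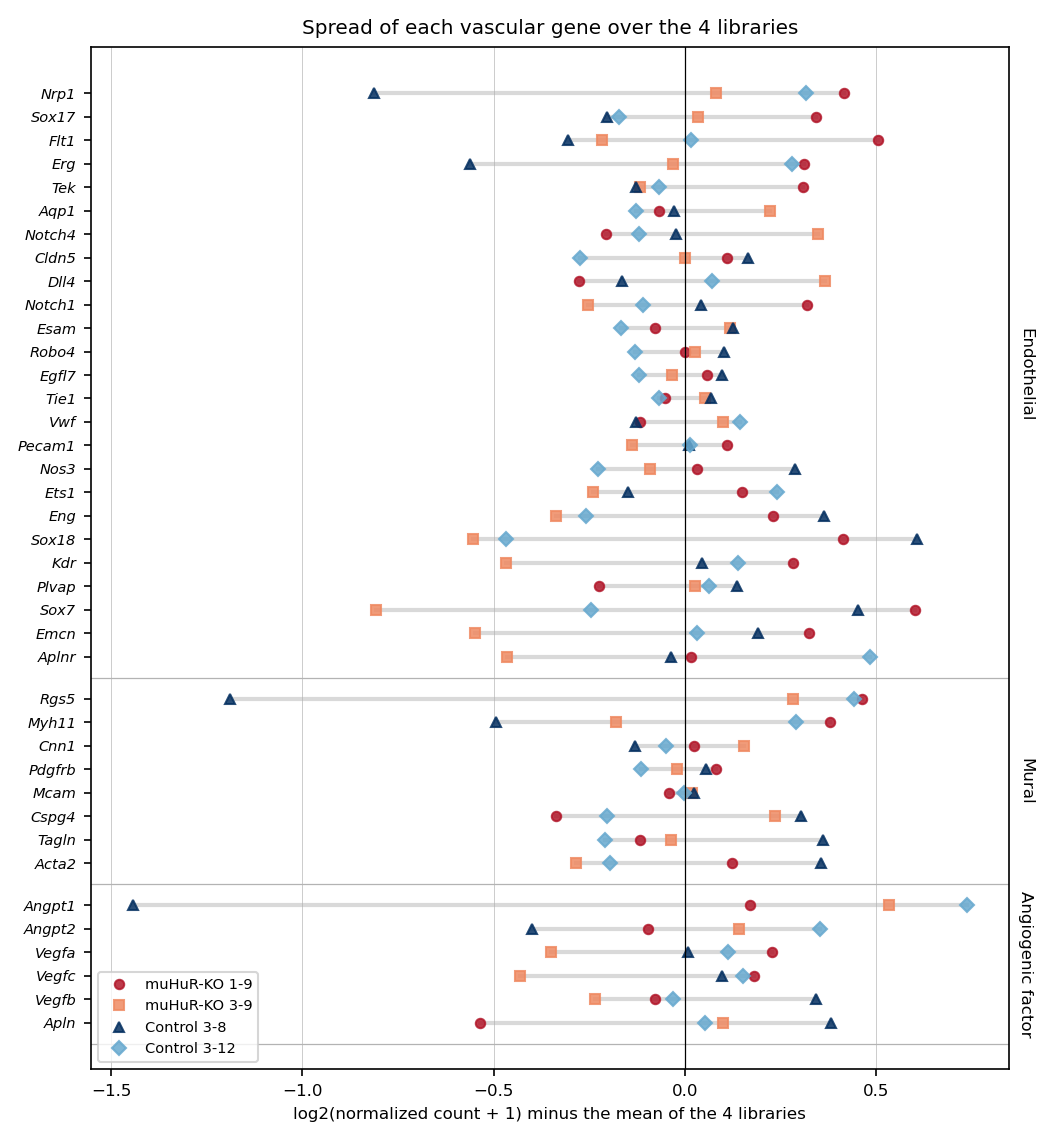
The 39 genes in each library as log2(normalized count + 1) minus the mean of the 4 libraries, for muHuR-KO 1-9, muHuR-KO 3-9, control 3-8 and control 3-12. The grey bars span the 4 libraries. For 35 genes the muHuR-KO and control symbols are interleaved or one group encloses the other, and the longest bars are those of Angpt1, Rgs5, Sox7 and Nrp1.

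Apart from Vegfb, the genes of the VEGF axis gave overlapping groups. Vegfa (ENSMUSG00000023951.17, chromosome 17 from 46016993 to 46032369, minus strand) had 9800 and 6562 normalized counts in muHuR-KO mice 1-9 and 3-9, against 8413 in control 3-8 and 9035 in control 3-12. The muHuR-KO mice thus enclosed both controls, and the means were 8181 ± 2289 in muHuR-KO and 8724 ± 440 in controls (SD, n = 2 each). The log2 fold change was -0.12 ± 0.29 (SE).

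Kdr, the main signaling receptor for VEGF-A, had 3153 and 1873 in the muHuR-KO mice, against 2670 and 2853 in controls 3-8 and 3-12. Flt1, the receptor that limits VEGF-A, had 3522 and 2135 in muHuR-KO, against 2010 and 2513 in controls. For Kdr the muHuR-KO mice enclosed both controls, and for Flt1 mouse 1-9 was the highest library and mouse 3-9 lay between the controls. The log2 fold changes were -0.18 ± 0.31 for Kdr and 0.29 ± 0.32 for Flt1 (SE). The ratio of Flt1 to Kdr per kilobase was 0.747 and 0.762 in the muHuR-KO mice, against 0.503 and 0.589 in the controls. These ratios did not overlap, but 2 against 2 libraries cannot give an exact two-sided permutation p below 0.333, and the ratio was formed after the values were seen.

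Vegfc had 80.8 and 52.5 normalized counts in the muHuR-KO mice, against 76.2 and 79.1 in controls 3-8 and 3-12, and mouse 3-9 was the lowest library. Apln, the apelin ligand released by sprouting endothelium, had 102 and 159 in the muHuR-KO mice, against 194 and 155 in the controls. Its receptor gene Aplnr had 932 and 668 in muHuR-KO, against 899 and 1289 in controls. Aplnr had the most negative log2 fold change of the 39 genes against both controls, -0.45 ± 0.31 (SE), and was chosen for mention after its values were seen.

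The angiopoietin receptor Tek had 1285 and 955 normalized counts in muHuR-KO mice 1-9 and 3-9, against 949 and 990 in controls 3-8 and 3-12. Its partner Tie1 was among the steadiest genes, at 1253 and 1349 in muHuR-KO, against 1362 and 1240 in controls, with a log2 fold change of 0.00 ± 0.25 (SE). Angpt2, the ligand that competes with angiopoietin 1, had 107 and 127 in the muHuR-KO mice, against 86.9 and 147 in the controls. The controls enclosed the muHuR-KO mice for both Tie1 and Angpt2.

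**Figure D3:**
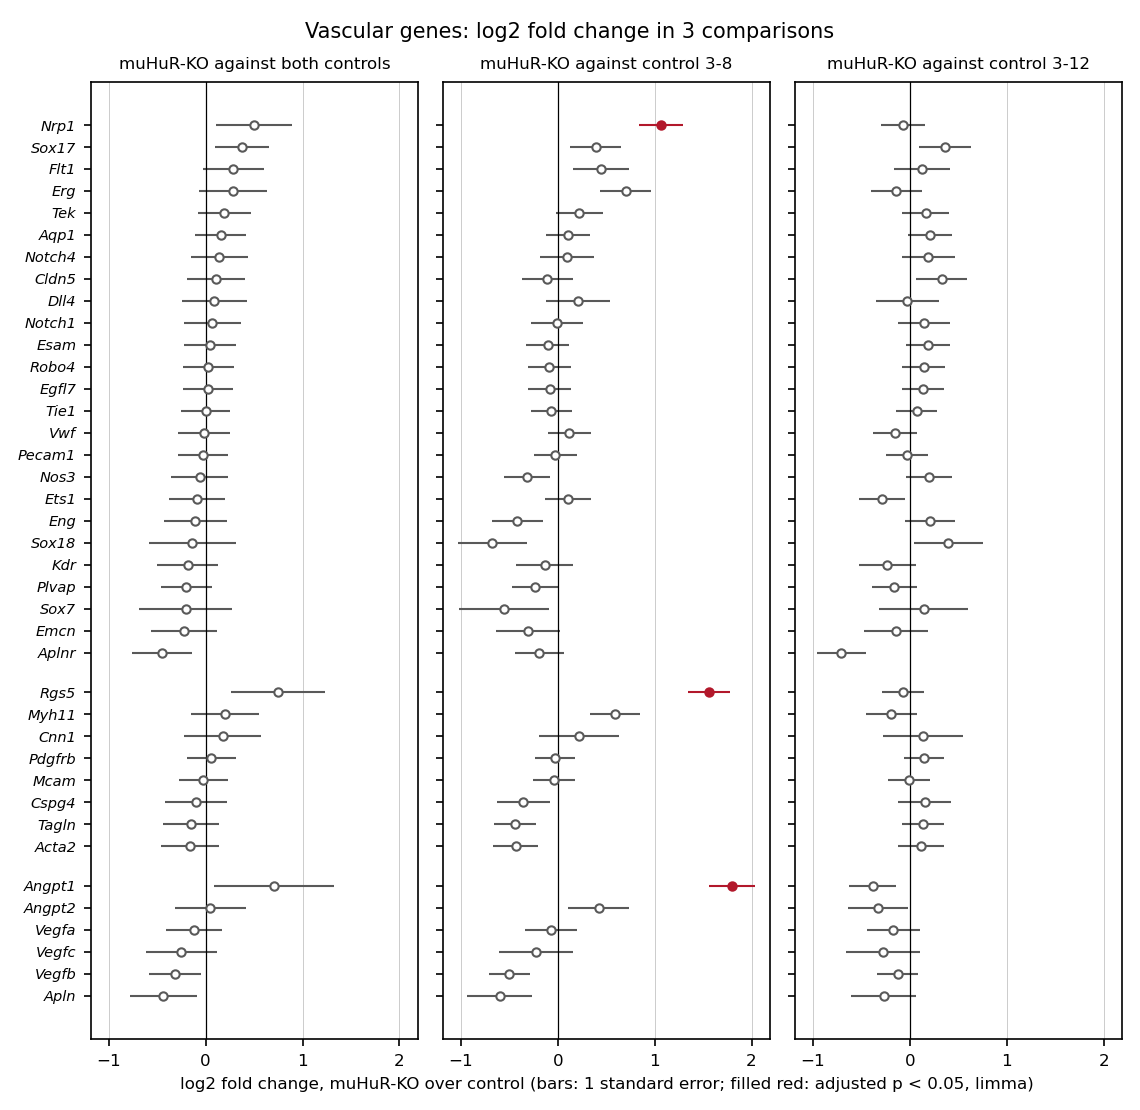
Log2 fold change of muHuR-KO over control for the 39 genes (bars, 1 SE) against both controls, against control 3-8 and against control 3-12, with genes ordered by the first comparison. Filled red symbols mark a limma adjusted p under 0.05: Nrp1 at 1.06, Rgs5 at 1.56 and Angpt1 at 1.797, against control 3-8 only, while the same genes lie at -0.07, -0.07 and -0.39 against control 3-12.

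Against control 3-8, 3 of the 39 genes were higher in muHuR-KO by limma (9.69% of all tested genes were) and 0 were lower (0.128% of all tested genes). The 7.69% of the 39 was close to the background share. Rgs5 (ENSMUSG00000026678.10, chromosome 1 from 169655501 to 169695813, plus strand) had 6068 and 5354 normalized counts in muHuR-KO mice 1-9 and 3-9, against 1931 in control 3-8 and 5984 in control 3-12. Against control 3-8 this was a log2 fold change of 1.56 ± 0.21 (SE), or 2.95-fold, with a limma adjusted p of 0.00852.

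Angpt1 (ENSMUSG00000022309.9, chromosome 15 from 42424723 to 42676977, minus strand) had 1004 and 1291 in muHuR-KO mice 1-9 and 3-9, against 327 in control 3-8 and 1488 in control 3-12. Against control 3-8 it was higher on the log2 scale by 1.797 ± 0.24 (SE), or 3.47-fold, with a limma adjusted p of 0.00852. Nrp1 (ENSMUSG00000025810.9, chromosome 8 from 128358604 to 128503363, plus strand), a co-receptor for VEGF-A and semaphorins, had 3291 and 2608 in the muHuR-KO mice, against 1403 in control 3-8 and 3070 in control 3-12. Relative to control 3-8, Nrp1 had a log2 fold change of 1.06 ± 0.23 (SE), or 2.09-fold, with a limma adjusted p of 0.0185.

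All 3 calls were lost when genes of low level were not filtered out (limma adjusted p of 0.273 to 0.280) and when eBayes was run without a trend (0.0615 to 0.104).

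In each of the 3 genes control 3-12 lay with or above the muHuR-KO mice and control 3-8 alone was low. The log2 difference of control 3-8 from the mean of the other 3 libraries was -1.58 for Rgs5, -1.93 for Angpt1 and -1.08 for Nrp1. It restates the low values of that library and is given as a description. Against control 3-12, where 0 of all tested genes were called by limma (0%; 630 at an unadjusted p under 0.05, 1 called by edgeR and 9 by DESeq2), the log2 fold changes of muHuR-KO were -0.07 for Rgs5, -0.39 for Angpt1 and -0.07 for Nrp1. None of the 39 genes passed in that comparison by limma, edgeR or DESeq2, and 38 of the 39 were within 0.5 of 0. The exception was Aplnr at -0.71, limma adjusted p = 0.906.

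The ratio of Angpt1 to Angpt2 per kilobase was 6.62 and 7.22 in muHuR-KO mice 1-9 and 3-9, against 2.67 in control 3-8 and 7.17 in control 3-12. The ratio of Rgs5 to the pericyte receptor gene Pdgfrb, also per kilobase, was 3.46 and 3.27 in the muHuR-KO mice, against 1.12 in control 3-8 and 3.904 in control 3-12. Control 3-8 was the outlying library in both ratios, while its level of Pdgfrb, 2081 normalized counts, lay within the other 3 libraries (1847 to 2116).

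The 3 called genes are poor in G and C. The transcripts of Angpt1, Rgs5 and Nrp1 have 39.3%, 41.1% and 41.9% GC, and Emcn, the sialomucin endomucin of capillaries and veins, has 40.7%. These 4 were the only genes of the 39 under 43%, where the median of the 39 was 52.6% and that of all tested genes 49.8%. None of the 29 vascular genes with at least 50% GC was called against control 3-8, a count not made over all tested genes of such GC content. Over all tested genes the median log2 fold change against control 3-8 was 1.02 at 38 to 40% GC (475 genes), 0.80 at 40 to 42% (824 genes) and -0.33 at 58 to 64% (1190 genes). Against control 3-12 the same medians were -0.16, -0.11 and 0.07. The quartiles against control 3-8 were 0.43 and 1.39 in the first of these GC ranges and 0.27 and 1.26 in the second. Angpt1 at 1.797 and Rgs5 at 1.56 lay above these quartiles and Nrp1 at 1.06 within them. What set the GC trend of control 3-8 was not tested.

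Each library was also corrected by loess for the GC content of its genes. The calls against control 3-8 were then 282 higher and 187 lower, of 13198 tested genes with a GC value. Without the correction they were 1287 and 17, of 13287. Of the 39 genes, 1 was called higher and 1 lower after the correction. Rgs5 was still higher (log2 fold change 0.81, limma adjusted p = 0.0488), while Angpt1 (0.86, adjusted p = 0.0565) and Nrp1 (0.39, adjusted p = 0.409) did not pass. Emcn, which had 1037 and 566 normalized counts in muHuR-KO mice 1-9 and 3-9, against 946 in control 3-8 and 846 in control 3-12, was called lower after the correction (-1.10, limma adjusted p = 0.0438). Before it, the log2 fold change of Emcn against control 3-8 was -0.30, with an adjusted p of 0.5999 by limma. In the uncorrected counts its 2 controls differed little and its 2 muHuR-KO mice by 1.83-fold. After the correction, the log2 fold change of Emcn against control 3-12 was -0.02 (limma adjusted p = 0.999), so its call holds against control 3-8 only. Emcn was singled out after its values were seen.

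**Figure D4:**
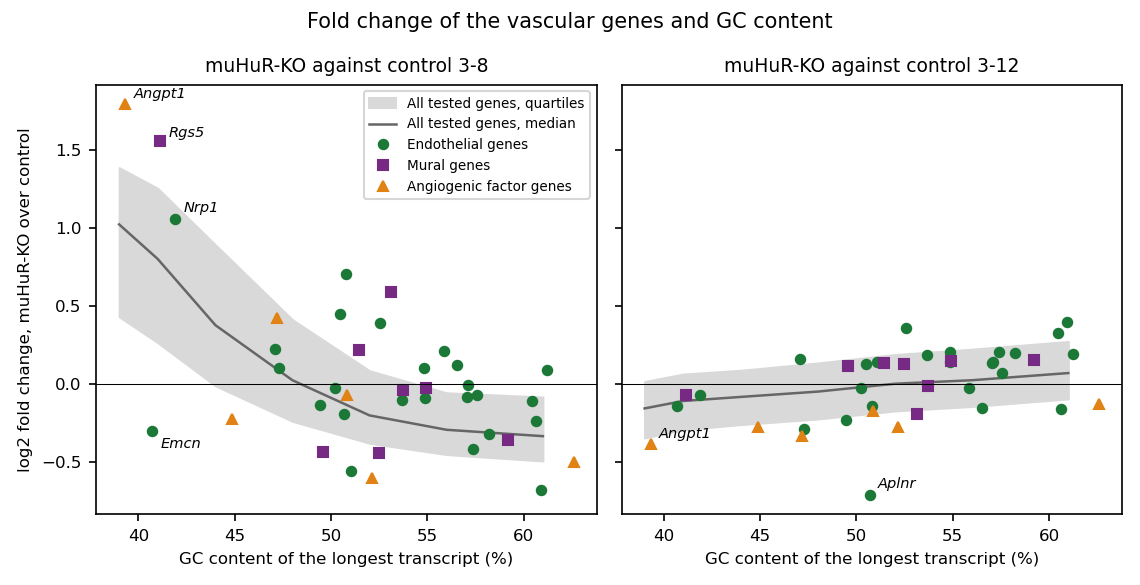
Log2 fold change of muHuR-KO over control against the GC content of each gene's longest transcript, for control 3-8 (left) and control 3-12 (right), with symbols for the 39 genes and, in grey, the median and quartiles of all tested genes by GC range. The grey band against control 3-8 falls from a median of 1.02 at the lowest GC to -0.33 at the highest, with Angpt1, Rgs5 and Nrp1 at its upper left and Emcn below it, and the band against control 3-12 stays between -0.16 and 0.07 in its median.

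The endothelial genes as a group had a median log2 fold change of 0.02 against both controls, -0.07 against control 3-8 and 0.13 against control 3-12. The mural genes had 0.02, -0.03 and 0.12, and the 6 angiogenic factor genes -0.19, -0.15 and -0.27. Over all tested genes the medians were -0.005, -0.04 and -0.03. Against both controls, the median over the alternatives and left-out libraries ran from -0.07 to 0.13 for the endothelial genes, from -0.03 to 0.12 for the mural genes and from -0.27 to -0.008 for the angiogenic factor genes, whose value of -0.008 was that without muHuR-KO 3-9. Against control 3-8 the median of the angiogenic factor genes was 0.15 without muHuR-KO 3-9 and -0.32 without muHuR-KO 1-9. The summed level of the 25 endothelial genes was 37930 and 32261 normalized counts in muHuR-KO mice 1-9 and 3-9, against 33663 and 33881 in controls 3-8 and 3-12. Mouse 1-9 was the highest library and mouse 3-9 the lowest. The sum of the 8 mural genes was 15490 and 13663 in muHuR-KO, against 11339 and 14558 in controls, with control 3-8 lowest. Rgs5 alone took up nearly all of the gap between mouse 1-9 and control 3-8 in this sum, and more than the gaps of the other 2 libraries.

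The muHuR-KO mice differed from each other in a set of endothelial genes, which were picked for description from their values. Of the 25 endothelial genes, 17 were higher in mouse 1-9 than in mouse 3-9, a count not made over all tested genes. The median log2 difference of the 25 was 0.31, beside -0.01 over all tested genes. In lists described below it was 0.30 for other endothelial genes, 0.67 for fibroblast, 0.89 for macrophage and 0.90 for red cell markers. For adipocyte markers it was -0.17 and for Schwann and nerve markers -0.79. Sox7, a SOXF transcription factor of endothelium, had 812 normalized counts in mouse 1-9 and 305 in mouse 3-9, a ratio of 2.66, against 731 in control 3-8 and 451 in control 3-12. Sox18, its relative, had 806 and 413 in the muHuR-KO mice, against 923 and 438 in the controls. Both genes were high in muHuR-KO 1-9 and control 3-8 and low in the other libraries. Eng had the same order of libraries as Sox18, with 2846 and 1922 in the muHuR-KO mice, against 3125 and 2027 in the controls.

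The Notch genes did not share a direction between the muHuR-KO mice. Dll4, the ligand of tip cells, had 162 and 253 normalized counts in mice 1-9 and 3-9, against 175 and 206 in controls 3-8 and 3-12. Notch4, the receptor restricted to endothelium, had 474 and 697 in muHuR-KO, against 539 and 504 in controls, and Notch1 had 1119 and 751 in muHuR-KO, against 922 and 830 in controls. Mouse 3-9 was thus the highest library for Dll4 and Notch4 and the lowest for Notch1.

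Some genes of endothelial junctions and identity, picked after their values were seen, shared their highest and their lowest library. Robo4, a guidance receptor that stabilizes vessels, had 725 and 739 in the muHuR-KO mice, against 778 and 662 in the controls, and Egfl7, a matrix protein secreted by endothelium, had 849 and 797 in muHuR-KO, against 873 and 750 in controls. Cldn5, the claudin of endothelial tight junctions, had 255 and 236 in muHuR-KO, against 265 and 195 in controls. Esam, an adhesion protein of the same junctions, had 784 and 899 in muHuR-KO, against 903 and 738 in controls. In each of these 4 genes control 3-8 was the highest and control 3-12 the lowest library. The muHuR-KO mice lay between them, with mouse 1-9 higher for Egfl7 and Cldn5 and mouse 3-9 higher for Robo4 and Esam. Vwf, the clotting factor stored by larger vessels, had 807 and 938 in the muHuR-KO mice, against 801 and 968 in the controls. The controls enclosed the muHuR-KO mice again, but with control 3-12 highest and control 3-8 lowest. Pecam1, also of the junctions, was highest in mouse 1-9 and lowest in mouse 3-9.

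Among the remaining transcription factors, Erg had 427 and 337 in muHuR-KO mice 1-9 and 3-9, against 232 and 418 in controls 3-8 and 3-12, and Ets1 had 1445 and 1103 in muHuR-KO, against 1175 and 1540 in controls. Nos3, which makes nitric oxide in endothelium, had 449 and 413 in muHuR-KO, against 537 and 375 in controls. Aqp1 had 6392 and 7818 in the muHuR-KO mice, against 6573 and 6131 in the controls, with mouse 3-9 highest, and its log2 fold change of 0.16 was 0.01 without that mouse. Each of these genes had overlapping groups.

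The contractile mural genes fell into unlike patterns. Tagln (transgelin) had 893 and 946 in the muHuR-KO mice, against 1247 and 839 in controls 3-8 and 3-12, and Acta2 was likewise highest in control 3-8. Myh11, the myosin of smooth muscle, was lowest there, with 2520 and 1710 in the muHuR-KO mice, against 1376 and 2369 in the controls. Cspg4, the NG2 proteoglycan of pericytes, had 657 and 978 in muHuR-KO, against 1026 and 721 in controls. Mcam, an adhesion protein of both vascular cell types, was the steadiest of the 39 genes, with 878 and 914 in the muHuR-KO mice, against 918 and 901 in the controls. Pdgfrb, the receptor that recruits pericytes, had 2116 and 1971 in muHuR-KO, against 2081 and 1847 in controls.

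The reads of 6 of the 39 genes can be shared with a gene of the table that overlaps their exons (Dll4, Egfl7, Eng, Nos3, Nrp1 and Tagln), and the strand setting of the counting is not given in the sources used here. In all, 10 of the 39 genes overlap exons of another annotated gene. The remaining 4 overlap genes on the opposite strand that are not in the table, over 804 bases for Sox17, 737 for Angpt1, 1068 and 414 for Notch1 and 17 for Mcam. Of the first 6, Tagln also overlaps such a gene outside the table over 1241 of its 1988 exon bases, and Nos3 over 1040 of 4132. Egfl7 also overlaps genes outside the table: Gm20532 (264 bases) and Mir126a (73) on its own strand, and Mir126b (58) on the opposite strand. Values of the 10 genes are uncertain to that extent.

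Vascular genes with and without the AU-rich heptamer had medians close to 0. The 11 vascular genes that carry it had a median log2 fold change of 0.07 against both controls, and the 28 without it -0.01. Over all tested genes these medians were 0.09 and -0.05. The order of the vascular medians turned between the controls, being -0.01 with the heptamer and -0.09 without it relative to control 3-8, and -0.03 with it and 0.12 without it relative to control 3-12. Against control 3-8 the medians of all tested genes were 0.19 with the heptamer and -0.14 without it, and their median GC contents were 46.8% and 51.2%, so the heptamer and the GC trend of control 3-8 cannot be told apart in that comparison.

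Other genes of the same systems gave calls against control 3-8 alone. Of 81 tested genes in 4 further lists (other endothelial genes, other mural genes, other genes of the VEGF, angiopoietin, apelin, PDGF and Notch pathways, and the oxygen-sensing and PGC-1 control of Vegfa), none was called against both controls or against control 3-12. Against control 3-8, 9 were higher and 0 lower by limma, which is 11.1% beside the 9.69% of all genes that were higher. The 9 genes had 37.8% to 47.6% GC, and only Ptprb, the phosphatase that restrains TIE2, still passed after the GC correction. Ptprb had 6110 and 4716 normalized counts in muHuR-KO mice 1-9 and 3-9, against 2651 in control 3-8 and 5110 in control 3-12, so it too was low in control 3-8 alone.

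Upstream of Vegfa, Hif1a, the oxygen-regulated activator of its transcription, had 1032 and 955 normalized counts in muHuR-KO mice 1-9 and 3-9, against 411 in control 3-8 and 1203 in control 3-12. Ppargc1a, which encodes PGC-1α and induces Vegfa in muscle, had 4126 and 2426 in muHuR-KO, against 1563 and 2695 in controls. Hif3a, a further subunit of the family, had 28.2 and 56.0 in the muHuR-KO mice, against 12.7 and 14.7 in the controls. Its log2 fold change of 1.47 had an unadjusted limma p of 0.0201 and an adjusted p of 0.9999. Hif3a had the smallest p against both controls of the 12 genes in its list. Its values are low in every library and so rest on few reads. Egln1, a prolyl hydroxylase that marks HIF for degradation, had 7114 and 8449 in muHuR-KO, against 10655 and 8938 in controls. Its muHuR-KO libraries were below both controls, as were those of 13.0% of all tested genes. The log2 fold change of Egln1 against both controls was -0.33, with an unadjusted limma p of 0.253 and an adjusted p of 0.9999. For Vhl, Egln2 and Egln3 of the same list the groups overlapped.

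Markers of other cell types in the muscle were summed beside these results, leaving out those with a mean under 10 or not in the table. The 5 tested lymphatic markers (of 6) summed to 1312 to 1548 normalized counts in the muHuR-KO libraries and 1118 to 1449 in controls, and the 9 tested macrophage markers (of 10) to 1364 to 2433 in muHuR-KO and 1366 to 1532 in controls. The 10 fibroblast markers summed to 57575 to 91170 in muHuR-KO and 56389 to 57340 in controls. Mouse 1-9, which was the higher muHuR-KO library for most endothelial genes, was also the highest library in the macrophage and fibroblast sums. The same held for the lymphatic and mural sums and for the red cell sum given below. The part of these cells in the endothelial difference between the muHuR-KO mice was not tested.

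The 6 adipocyte markers summed to 1634 to 1884 in muHuR-KO and 1162 to 2704 in controls, and the 8 Schwann and nerve markers to 5914 to 9079 in muHuR-KO and 4978 to 8674 in controls. The 3 tested red cell markers (of 6) summed to 2218 to 4181 in muHuR-KO and 3480 to 4077 in controls, with mouse 3-9 lowest. The 6 satellite cell markers summed to 1388 to 1489 in muHuR-KO and 1189 to 1442 in controls, and the 10 muscle fiber markers to 3047480 to 3443980 in muHuR-KO and 3475110 to 3649330 in controls. None of these markers was called against both controls. For the 4 markers called below, log2 fold changes against control 3-8 were compared before and after the GC correction. They were 1.49 and 1.42 for Cd163, 2.19 and 2.17 for Lep and 1.51 and 1.68 for Myh1. That of Chodl fell from 1.43 to 0.89. The GC content of these 4 reached 52.6%, in Myh1. Against control 3-8, 4 of the 57 tested markers (7.02%) were higher in muHuR-KO (Cd163, Lep, Chodl and Myh1), beside 9.69% of all tested genes, and 0 were lower, beside 0.128%.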

How the data were processed

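RNA of the soleus of 2 muHuR-KO and 2 control mice was sequenced as 4 mRNA libraries. Per the submitters' processing notes, the authors used TopHat2 2.0.10 (GRCm38), HTSeq 0.6.1 and DESeq2. The deposited signal values are gene counts divided by a size factor per library. The deposited table also holds the authors' own fold changes, errors and p-values, which were not used. Whole reads were recovered from the steps between values: 100% of values were whole to within 0.01.

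Genes with a mean of at least 10 were kept, and log2(normalized count + 1) was fitted with limma 3.58.1 (R 4.3.3; eBayes with a trend), p-values adjusted over 13287 genes. A fold change on this scale understates that of low genes. The fit against both controls had 2 residual degrees of freedom, and that against a single control 1. Coordinates, exon lengths, GC content and sequences came from GENCODE M21. The script was tested on simulated data.

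The members and the gene lists were chosen with earlier results of these data known. Named genes were those called in any comparison, the 4 largest changes each way among genes whose groups did not overlap, the 3 (endothelial) or 2 highest per kilobase, 10 VEGF and angiopoietin genes, Pecam1 and Acta2. Others were named after their values were seen. Alternatives were pseudocounts of 0.5 and 5, a filter at 50 or none, no trend, the recovered reads in DESeq2 1.42.0 or edgeR 4.0.16, TMM factors, loess correction for GC content or length (span 0.4), and leaving out each library. Figures used matplotlib 3.10.9.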

Additional observations from a re-analysis of the deposited data

How the results depend on the processing

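No paired analysis was possible because the groups share only 1 number, the 3 that opens the labels of muHuR-KO 3-9 and both controls. A block on it reduces to the comparison without muHuR-KO 1-9 by limma, with 0 genes and 0 of the 39 called. Of the values against both controls, leaving out control 3-12 gave 1266 genes and 3 of the 39 called (range over left-out libraries 0 to 1266 and 0 to 3), and leaving out control 3-8 gave 2 genes and 0 of the 39. Against control 3-8, where 1304 genes were called, no filter and no trend each gave 0 genes and 0 of the 39, the GC correction gave 469 genes and the length correction 679. Against control 3-12, TMM factors gave 4 genes, edgeR 1, DESeq2 9, the GC correction 20 and leaving out control 3-8 gave 2. The 3 members called low in control 3-8 against the rest became 0 without the filter. For these settings the cause was not tested.

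Against both controls, the log2 fold changes of Sox17, Cnn1, Vegfb, Plvap and Aqp1 kept their sign in every alternative that gave a value (Cnn1 is under the filter at 50), with 0.01 to 0.30 for Aqp1 when a library was left out. Those of 13 other genes changed sign, and leaving out a library gave log2 fold changes of -0.0674 to 1.062 for Nrp1, -0.0700 to 1.562 for Rgs5, -0.39 to 1.797 for Angpt1, -0.15 to 0.10 for Pecam1, -0.42 to 0.21 for Eng, -0.44 to 0.11 for Acta2, -0.41 to 0.17 for Vegfa, -0.56 to 0.0571 for Vegfc, -0.56 to 0.19 for Kdr, -0.0739 to 0.65 for Flt1, -0.33 to 0.42 for Angpt2, -0.0205 to 0.41 for Tek and -0.0671 to 0.0687 for Tie1. Nrp1, Rgs5 and Angpt1 passed without control 3-12 and were negative without control 3-8. Pecam1 was 0.0216 with TMM factors, 0.0277 by edgeR and 0.0170 after the GC correction, and Tie1 was -0.0275 after the length correction. Against control 3-12 the GC correction gave 0.0424 for Nrp1 and 0.0497 for Rgs5, and leaving out a muHuR-KO mouse gave -0.24 to 0.10 for Nrp1 and -0.16 to 0.0203 for Rgs5. Against control 3-8 the adjusted p over the alternatives (limma, edgeR or DESeq2) was 5.66e-06 to 0.274 for Rgs5, 8.42e-06 to 0.274 for Angpt1 and 0.00359 to 0.409 for Nrp1. Cnn1 rests on 18 to 54 reads, and the depth of control 3-12 limits low genes most. In comparisons with a single control, leaving out a muHuR-KO mouse gave a value with no test.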
